A study of Mus musculus with 95 samples.

Results

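The genes described here are 8 members of the annexin family, Anxa1, Anxa2, Anxa3, Anxa4, Anxa5, Anxa6, Anxa7 and Anxa11, together with S100a10 and Lgals1, so 10 genes of 53465 entries in the count table. They were chosen by measured values: the annexin family was taken because the levels of Anxa1, Anxa2 and Anxa5 in these libraries were higher at later weeks in progenitors, and S100a10 and Lgals1 were added as partners. The values over the weeks and against steady state in the progenitors therefore chose the list and are given without a test. The study profiled RNA from 3 sorted mouse bone marrow populations while blood formation recovered after a transplant. These are haematopoietic stem cells (HSC) and 2 progenitor populations named HPC-1 and HPC-2. The transplanted groups came from B6.SJL mice given a lethal dose of 900 cGy of irradiation and then 8000 LSK cells (lineage-negative, Sca1+, cKit+ marrow cells). Their marrow was taken at 8 times, namely weeks 3, 4, 5 and 6 and then weeks 8, 10, 13 and 16, with 3 libraries for each population and week. The steady-state groups came from B6.SJL mice that were not transplanted, with 8 HSC, 8 HPC-1 and 7 HPC-2 libraries. All mice are labelled as aged 8 to 12 weeks, the labels name no engineered allele, and cKit-enriched marrow of the spine, femurs, tibia and iliac bones was sorted by flow cytometry. The labels give the same sort gate for all 3 populations, and whether host cells remained in the sorted fraction is not given in the sources used here.

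Annexins are cytosolic proteins that bind negatively charged phospholipids when calcium rises, and so attach to the inner face of the plasma membrane, to vesicles and to damaged membrane. Several also act outside the cell: annexin A1 is a ligand of formyl peptide receptors and limits inflammation, and annexin A2 forms a complex with the S100a10 protein (p11) that gathers plasminogen and its activator on the cell surface. Annexin A5 binds exposed phosphatidylserine and is the common probe for dying cells. Galectin-1, the product of Lgals1, is a secreted lectin that binds galactose-containing sugars on surface glycoproteins, and it is made by blood and stromal cells of the marrow.

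The 250 bases upstream of a RefSeq start of the 3 genes that the choice rested on are shown because their motif content differs. They are given 5′ to 3′ on the strand of the gene, from RefSeq with coordinates on GRCm38.p6. Capitals mark each match, on either strand, to TATAAA (the TATA box), GGGCGG (the GC box), CCAAT or TGANTCA (the AP-1 motif, with N for any base). The Anxa1 window is chr19:20390672-20390921 on the minus strand, the Anxa2 window is chr9:69453433-69453682 on the plus strand, and the Anxa5 window is chr3:36475888-36476137 on the minus strand.
Anxa1: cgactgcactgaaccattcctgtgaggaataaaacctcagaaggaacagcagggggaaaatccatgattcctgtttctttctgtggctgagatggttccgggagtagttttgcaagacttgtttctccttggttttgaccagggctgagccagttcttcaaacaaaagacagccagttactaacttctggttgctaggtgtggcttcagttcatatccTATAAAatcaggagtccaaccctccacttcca
Anxa2: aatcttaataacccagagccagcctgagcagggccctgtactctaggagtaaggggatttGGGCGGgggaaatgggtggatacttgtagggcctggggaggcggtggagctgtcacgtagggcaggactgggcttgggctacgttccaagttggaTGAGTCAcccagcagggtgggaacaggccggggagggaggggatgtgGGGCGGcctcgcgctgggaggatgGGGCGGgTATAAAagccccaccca
Anxa5: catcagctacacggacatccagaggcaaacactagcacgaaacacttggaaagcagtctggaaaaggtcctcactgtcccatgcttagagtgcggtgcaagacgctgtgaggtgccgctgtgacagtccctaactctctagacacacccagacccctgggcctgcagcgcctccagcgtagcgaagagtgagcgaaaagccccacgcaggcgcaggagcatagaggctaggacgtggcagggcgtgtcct
Positions are counted from the RefSeq start. Anxa1 has 1 match, a TATAAA at bases -32 to -27. Anxa2 has a TATAAA at -17 to -12, a TGANTCA at -95 to -89, and 3 GGGCGG matches that begin at -190, -48 and -24. The TATAAA of Anxa2 lies next to its nearest GGGCGG and the matches do not overlap. Anxa5 holds none of the 4 motifs, which says only that these letters are not in its window. Of 32851 mouse promoter windows of this length, 12.4% hold TATAAA, 32.7% GGGCGG, 33.8% CCAAT and 6.75% TGANTCA. A match is a description of the letters and was not tested as a binding site. The genes themselves are protein-coding and span chr19:20373428-20390944 (Anxa1), chr9:69453620-69491795 (Anxa2) and chr3:36448923-36475894 (Anxa5) on GRCm38 in GENCODE M21, where S100a10 spans chr3:93555080-93564643 and Lgals1 chr15:78926725-78930465. The RefSeq and GENCODE starts differ. The Anxa1 window lies wholly inside the GENCODE span of its gene, and the Anxa2 and Anxa5 windows reach into theirs. The TATAAA of Anxa2 and its GGGCGG matches at -48 and -24 lie inside that span. A window was found for 6 of the 10 genes, and Anxa3, Anxa6, S100a10 and Lgals1 are named only.

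The 95 libraries held 3551908 to 8492759 counts (median 5628592) and detected 3827 to 15697 genes. In 12 of them fewer than 10000 genes had a count: 3 HSC and 4 HPC-2 libraries at steady state, 2 HSC libraries at 13 and 16 weeks, and 3 HPC-2 libraries at 13 and 16 weeks. These sparse libraries touch the late HPC-2 values most, so those values are also given without them. There were also 6 pairs of libraries, 12 in all, whose counts differed far less than those of any other pair, and each pair joins libraries of different groups. Replicate 1 of the 4-week HPC-2 group resembled replicate 2 of the 5-week group, and among HPC-1 the libraries numbered 3 at 8 and at 10 weeks resembled each other. Across populations, the pairs were 5-week HPC-1 replicate 1 with 8-week HPC-2 replicate 2, 13-week HPC-1 replicate 2 with steady-state HPC-2 replicate 5, steady-state HPC-1 with steady-state HPC-2 (replicate 7 of each), and 13-week HPC-2 replicate 1 with steady-state HSC replicate 1. In 11 libraries, some of them in those pairs, the profile lay nearer to the mean of another population than to their own: 5 HSC libraries (steady state replicate 1, all 3 at 3 weeks and 4 weeks replicate 1), 1 HPC-1 library and 5 HPC-2 libraries. HPC-2 3 weeks replicate 1 has a treatment label of untreated and was kept at 3 weeks by its title. Every comparison was repeated without the sparse, the near-identical and the nearer libraries, and the calls of the 10 genes that were lost are named beside their values.

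The population labels were checked against marker genes. The summed level of 6 HSC markers (Hlf, Mecom, Procr, Fgd5, Slamf1, Mllt3) had a median of 586 CPM (counts-per-million, a gene's counts scaled to the library total) in transplanted HSC, against 107 CPM in HPC-1 and 133 CPM in HPC-2. Of 5 lymphoid-primed markers (Dntt, Flt3, Il7r, Rag2, Ccr9), the summed median was 803 CPM in transplanted HPC-1, against 0.145 CPM in HSC and 1.37 CPM in HPC-2. The sum of the 5 markers set for HPC-2 did not separate it, with medians of 1620 CPM in transplanted HPC-2, 1030 CPM in HPC-1 and 1450 CPM in HSC. Singly, their transplanted medians differed. In HPC-2, HPC-1 and HSC in turn, they were 187, 17.4 and 64.5 CPM for Gata1 and 45.7, 6.97 and 23.5 CPM for Itga2b. In the same order, Cd48 had 483, 979 and 15 CPM, Slamf1 73.1, 0 and 95.4 CPM, and Pf4 629, 12.3 and 1220 CPM. No single marker was set to decide, so HPC-2 is called by its label. The 8 granulocyte genes, of which Mpo, Elane and Prtn3 are also active in myeloid progenitors, had summed medians of 650 CPM in transplanted HSC, 2020 CPM in HPC-1 and 445 CPM in HPC-2. In bulk RNA such as this, fewer cells of a type and less RNA per cell cannot be told apart.

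Per base of exon, S100a10, the annexin A2 partner, had the highest level of the 10 genes in all 6 combinations of population and state. Its mean ranged over 378 to 495 CPM per kilobase of exon. Lgals1 was second in both progenitors, at 367 CPM per kilobase in transplanted and 227 in steady-state HPC-1, and at 331 in transplanted and 235 in steady-state HPC-2. In HSC it came after Anxa5 and Anxa1, at 90.0 CPM per kilobase after transplant and 51.6 at steady state, and Anxa5 was second, at 172 after transplant and 202 at steady state. Anxa1 took the third place in 5 of the 6 combinations, and in transplanted HPC-2 it came after Anxa5. Anxa4, a membrane-binding annexin best known from epithelia, followed at 36.5 to 68.6 CPM per kilobase, and Anxa7 (synexin, an annexin of vesicle fusion) at 9.50 to 22.5. Anxa2 ranged over 12.6 to 41.1 CPM per kilobase, with its highest mean in transplanted HPC-1. Anxa3, which neutrophils express strongly, and Anxa6, which associates with endosomes and cholesterol, stayed at 1.89 to 15.2 CPM per kilobase. Anxa11, which tethers RNA granules to lysosomes, was last in all 6 at 0.0919 to 0.473 CPM per kilobase and had 658 counts in all, seen in 60 of 95 libraries. Its antisense gene Anxa11os had 102 counts, and the Lgals1 pseudogenes Lgals1-ps1 and Lgals1-ps2 had 0. By contrast S100a10 had counts in 95 libraries, Anxa1 and Anxa5 in 94, Anxa4 and Lgals1 in 93, Anxa7 in 89, Anxa2 in 86, Anxa6 in 73 and Anxa3 in 63.

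**Figure D1:**
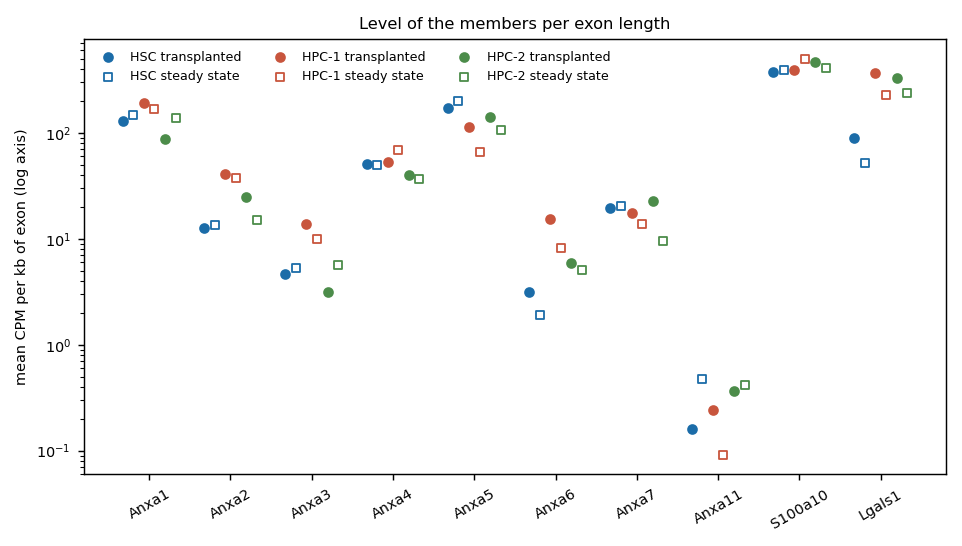
Mean level of the 10 genes in counts-per-million per kilobase of exon (log axis) in HSC, HPC-1 and HPC-2, with transplanted libraries as filled circles left of steady-state libraries as open squares. S100a10 lies highest in each population (378 to 495), Lgals1 lies far lower in HSC (90.0 after transplant) than in transplanted HPC-1 (367), and Anxa11 lies lowest (0.0919 to 0.473).

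Over the weeks after transplant the annexins did not move as 1 block. Levels at 13 and 16 weeks lay above all those at 3 and 4 weeks for Anxa1 and Anxa4 in HPC-1 and for Anxa2, Anxa4 and Anxa5 in HPC-2, while Lgals1 lay below in both progenitors. In HSC all 10 genes overlapped between the late and early weeks. The label of the set, annexins that rise, was given from these same values, so they cannot serve as support for it. They show only which genes separated in which progenitor, and the genes are called the annexins and their partners here. As background, over 8355 genes averaging 10 CPM or more, the late libraries lay wholly above the early ones in 0.347% of genes in HPC-1, 0.227% in HPC-2 and 0.718% in HSC. They lay wholly below in 0.479% of genes in HPC-1, 1.47% in HPC-2 and 1.72% in HSC. Since these values chose the genes, nothing is read from their count against that share.

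Anxa1, the formyl peptide receptor ligand, in HPC-1 libraries stood at 363, 241 and 293 CPM at 3 weeks and at 485, 452 and 324 CPM at 4 weeks. It reached 785, 537 and 882 CPM at 8 weeks and 852, 721 and 872 CPM at 16 weeks. Every library at 13 and 16 weeks was higher than every library at 3 and 4 weeks, and the weeks between held values from both ranges. The 6 late HPC-1 libraries spanned 592 to 872 CPM with a median of 777 CPM, and the 6 early ones 241 to 485 CPM with a median of 343.5 CPM, a ratio of medians of 2.26. In HPC-2 the late Anxa1 levels were 180 to 665 CPM (median 328 CPM) and the early ones 52.2 to 326 CPM (median 75.2 CPM). These groups overlapped through 2 early libraries: HPC-2 3 weeks replicate 1 at 326 CPM, which is the library labelled untreated, and HPC-2 4 weeks replicate 1 at 185 CPM, just above the 2 lowest late libraries. The fitted slopes were 0.54 (SE 0.11) in HPC-1 and 0.55 (SE 0.24) in HPC-2, in log2 units per doubling of the weeks after transplant.

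Anxa2, which builds the plasminogen-binding complex with S100a10, separated late from early weeks in HPC-2, while its HPC-1 ranges overlapped. HPC-2 libraries had 24.0, 50.6 and 51.7 CPM at 3 weeks, 37.5, 29.0 and 25.2 CPM at 4 weeks, 129, 142 and 60.8 CPM at 8 weeks and 218, 216 and 167 CPM at 16 weeks. All 6 late libraries (98.6 to 271 CPM, median 192 CPM) were above all 6 early ones (24.0 to 51.7 CPM, median 33.2 CPM), a ratio of medians of 5.77. The 10-week libraries broke the order, at 125, 83.3 and 11.5 CPM. In HPC-1 the late libraries held 85.5 to 242 CPM and the early ones 134 to 272 CPM. The slopes were 0.92 (SE 0.22) in HPC-2 and -0.12 (SE 0.25) in HPC-1, in log2 units per doubling, and the difference between these slopes was not tested because both chose the list.

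Anxa5, the phosphatidylserine binder, also differed between late and early weeks in HPC-2. Its levels were 108, 122 and 222 CPM at 3 weeks, 107, 24.8 and 164 CPM at 4 weeks, 415, 309 and 246 CPM at 13 weeks and 444, 1308 and 492 CPM at 16 weeks. The late range of 246 to 1308 CPM (median 429.5 CPM) lay wholly above the early range of 24.8 to 222 CPM (median 115 CPM), with a ratio of medians of 3.72. The value of 1308 CPM came from 1 sparse library, HPC-2 16 weeks replicate 2. In HPC-1 the late libraries (156 to 312 CPM) overlapped the early ones (144 to 251 CPM). The Anxa5 slopes were 0.88 (SE 0.20) in HPC-2 and 0.13 (SE 0.15) in HPC-1, in log2 units per doubling.

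**Figure D2:**
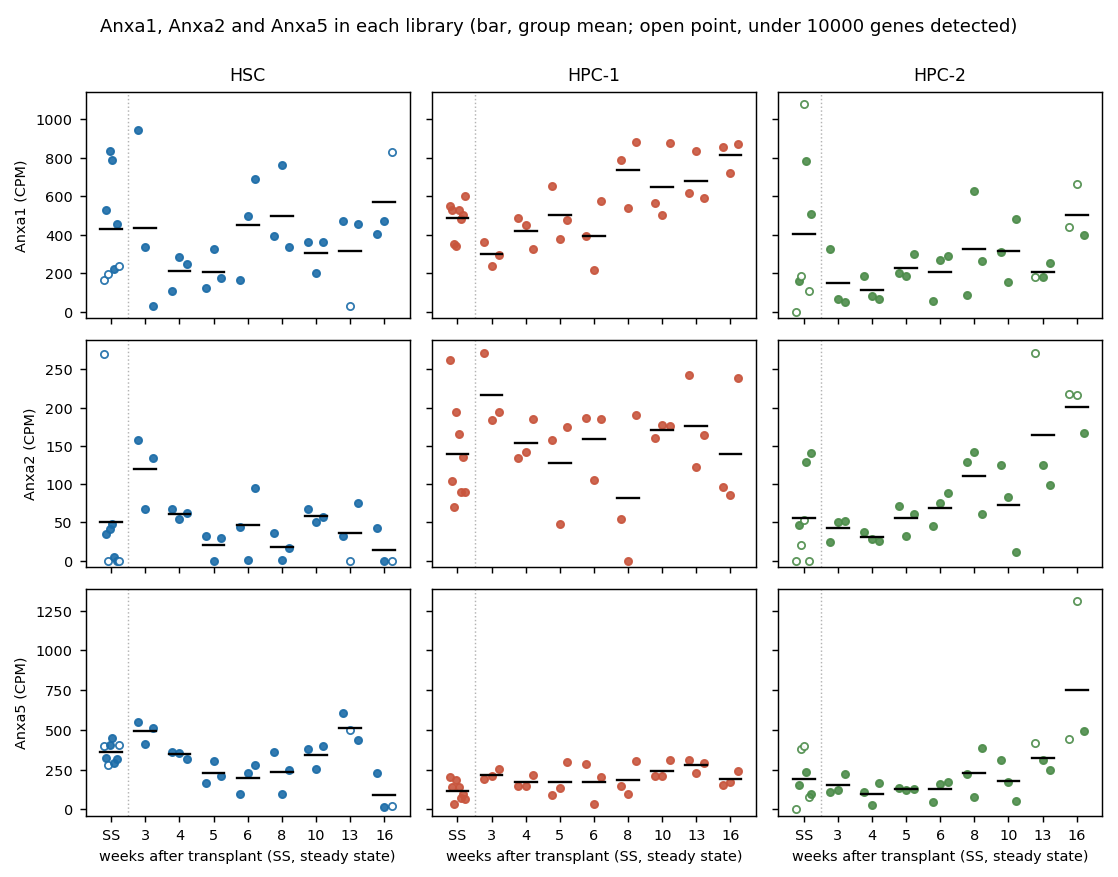
Levels in counts-per-million of Anxa1, Anxa2 and Anxa5 (3 lines of panels) in HSC, HPC-1 and HPC-2 (columns), at steady state (SS) and then by weeks after transplant; each point is a library, open where fewer than 10000 genes were detected, and each bar is a group mean. Anxa1 in HPC-1 lies at 592 to 872 at 13 and 16 weeks and at 241 to 485 at 3 and 4 weeks, and Anxa2 and Anxa5 in HPC-2 separate the same weeks, while their HSC levels overlap.

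Anxa4 is not one of the 3 genes named in the choice, and its late and early weeks were separate in both progenitors. In HPC-1 its late libraries held 230 to 327 CPM (median 271 CPM) and its early ones 112 to 224 CPM (median 148 CPM). In HPC-2 the late libraries held 133 to 473 CPM (median 285 CPM) and the early ones 54.2 to 108 CPM (median 90.5 CPM). The highest HPC-1 levels of Anxa4 came between those weeks, at 551 CPM in 1 library at 8 weeks and 528 CPM in 1 at 10 weeks. Its slopes were 0.50 (SE 0.16) in HPC-1 and 0.67 (SE 0.16) in HPC-2, in log2 units per doubling. Reads of Gm44036, a non-coding gene on the opposite strand of the Anxa4 locus, came to 600 counts against 120807 for Anxa4.

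The sparse libraries make up 3 of the 6 late HPC-2 libraries, so the HPC-2 values were recomputed without them. The other 3 late libraries held 98.6 to 167 CPM of Anxa2, 246 to 492 CPM of Anxa5 and 133 to 277 CPM of Anxa4, and each of these ranges still lay above the early one. These 3 libraries also detected fewer genes, 10066 to 10375, than the 6 early ones, 11949 to 14985. Week and genes detected therefore cannot be told apart in HPC-2, also without the sparse libraries. Without all sparse libraries the HPC-2 slopes were 0.53 for Anxa1, 0.78 for Anxa2, 0.54 for Anxa4 and 0.57 for Anxa5, in log2 units per doubling. Without the near-identical libraries the HPC-2 slopes were 0.58 for Anxa1, 0.81 for Anxa2, 0.66 for Anxa4 and 0.88 for Anxa5, and the HPC-1 slopes were 0.53 for Anxa1 and 0.53 for Anxa4. Without the libraries nearer to another population the HPC-2 slopes were 0.485 for Anxa1, 0.94 for Anxa2, 0.68 for Anxa4 and 0.895 for Anxa5. The 4 genes of the sort gate (Kit, Ly6a, Cd48, Slamf1) moved with these weeks as well. Their summed level in HPC-2 was 285 to 606 CPM at 13 and 16 weeks and 693 to 1613 CPM at 3 and 4 weeks, without overlap. Granulocyte genes in HPC-2 summed to 27.4 to 7101 CPM late (median 1379 CPM) and 17.1 to 6647 CPM early (median 239 CPM). The 9 monocyte and macrophage genes summed there to 0 to 3857 CPM late (median 46.8 CPM) and 3.71 to 583 CPM early (median 62.3 CPM). For 6 erythroid genes the HPC-2 sums were 3.79 to 360 CPM late (median 210 CPM) and 252 to 553 CPM early (median 351 CPM). In HPC-1 the 5 lymphoid-primed markers summed to 275 to 519 CPM late and 834 to 2078 CPM early, also without overlap. The 6 HSC markers in HPC-1 summed to 124 to 261 CPM late and 59.5 to 107 CPM early, again without overlap, while granulocyte genes summed to 1299 to 4566 CPM late and 1045 to 4091 CPM early. The part of these shifts in the annexin values was not tested.

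The partners went other ways. Lgals1, the galectin-1 gene, was lower late than early in both progenitors. In HPC-1 its late libraries held 147 to 248 CPM (median 207 CPM) and its early ones 255 to 631 CPM (median 482 CPM), a ratio of medians of 0.429. In HPC-2 the levels were 642, 398 and 202 CPM at 3 weeks, 524, 666 and 219 CPM at 4 weeks, 40.3, 104 and 112 CPM at 13 weeks and 0, 158 and 24.8 CPM at 16 weeks. All 6 late HPC-2 libraries were below all 6 early ones, with a ratio of medians of 0.157, and the 3 late libraries that were not sparse held 24.8 to 112 CPM. The Lgals1 slopes were -0.59 (SE 0.15) in HPC-1 and -1.29 (SE 0.41) in HPC-2, in log2 units per doubling, and -1.07 in HPC-2 without the sparse libraries. S100a10 overlapped between late and early weeks in both: 262 to 672 CPM late and 296 to 581 CPM early in HPC-1, and 261 to 547 CPM late and 233 to 804 CPM early in HPC-2. Its HPC-2 median was 312 CPM late and 694 CPM early, the opposite order to that of Anxa2 in the same libraries.

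The remaining members had few counts or a wide spread over the weeks. Anxa6 in HPC-2 had late levels of 0 to 45.9 CPM, with 5 of 6 libraries at 0, and early levels of 7.13 to 105 CPM. Anxa3 in HPC-1 held 9.51 to 52.1 CPM late and 0 to 114 CPM early. Anxa7 in HPC-2 held 0 to 828.7 CPM late and 55.1 to 147 CPM early, with 2 of its late libraries at 0. Counting signs, 4 of 10 slopes were positive in HPC-1 and 6 of 10 in HPC-2. The median slope of the 10 genes was -0.13 in HPC-1 and 0.26 in HPC-2, against medians over all fitted genes of -0.0083 in HPC-1 and -0.13 in HPC-2, in log2 units per doubling. Across the table, 0.0841% of 13078 genes were called higher and 0.122% lower with weeks in HPC-1, and 0.0536% of 13065 higher and 0.536% lower in HPC-2.

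**Figure D3:**
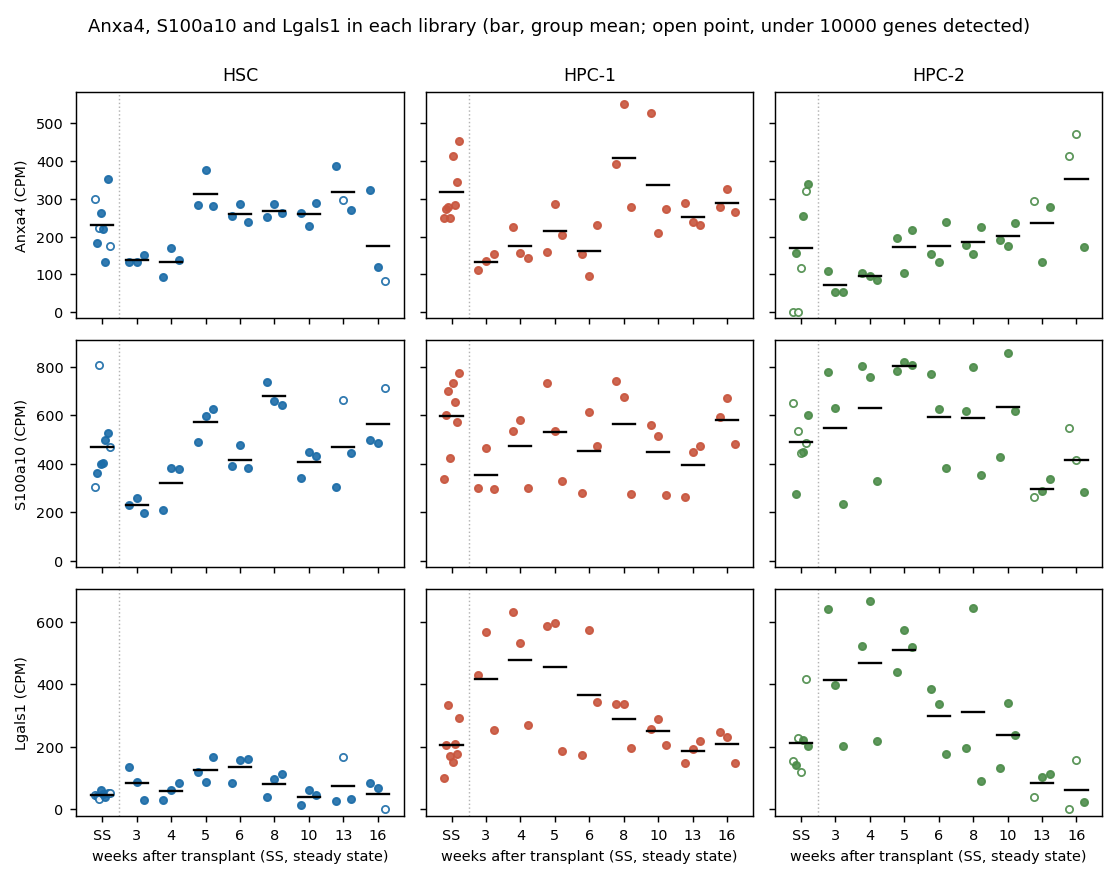
Levels in counts-per-million of Anxa4, S100a10 and Lgals1 (3 lines of panels) in HSC, HPC-1 and HPC-2 (columns), at steady state (SS) and then by weeks after transplant; each point is a library, open where fewer than 10000 genes were detected, and each bar is a group mean. Lgals1 at 13 and 16 weeks lies at 147 to 248 in HPC-1 and at 0 to 158 in HPC-2, below its 3 and 4 week libraries at 255 to 631 and 202 to 666.

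The slope in HSC was not used to choose the genes and could be tested with edgeR's quasi-likelihood test over 13492 genes. At a Benjamini-Hochberg adjusted p under 0.05, 0 of the 10 genes were called, where 0.156% of all genes were called higher and 0.0741% lower. By edgeR's unadjusted p, S100a10 alone of the 10 was under 0.05, at 0.0203. Its HSC levels were 229, 260 and 196 CPM at 3 weeks, 209, 382 and 377 CPM at 4 weeks, 740, 658 and 644 CPM at 8 weeks and 500, 484 and 713 CPM at 16 weeks. All 3 libraries at 3 weeks and 1 at 4 weeks were low, and those at 8 weeks were in the range of the last or above it. The slope of S100a10 in HSC was 0.37 (SE 0.15, adjusted p = 0.349), in log2 units per doubling. It was 0.15 without the 3-week libraries and 0.05 without the libraries nearer to another population, which include all of those at 3 weeks. For the genes that led to the choice, the HSC slopes were 0.25 (SE 0.26, adjusted p = 0.759) for Anxa1, -0.75 (SE 0.54, adjusted p = 0.629) for Anxa2 and -0.25 (SE 0.24, adjusted p = 0.74) for Anxa5. Anxa5 in HSC had 608, 500 and 435 CPM at 13 weeks and 227, 16.0 and 19.0 CPM at 16 weeks. DESeq2 on the same slope also called 0 of the 10 genes. Positive slopes were fitted for 5 of 10 genes in HSC, with a median of -0.07 against -0.05 over all genes.

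**Figure D4:**
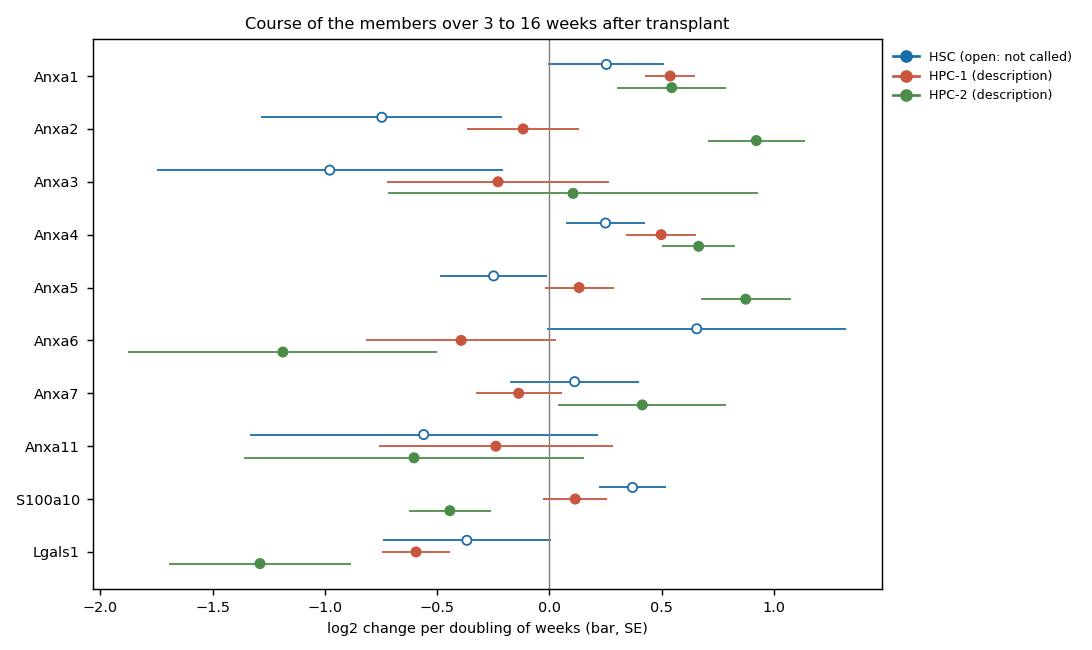
Fitted log2 change per doubling of the weeks after transplant for each of the 10 genes in HSC, HPC-1 and HPC-2, with bars of 1 standard error; the HSC points are open because 0 of 10 passed adjusted p < 0.05, and the progenitor points are a description without a test. Anxa2 lies at 0.92 in HPC-2 and -0.12 in HPC-1, and Lgals1 lies at -1.29 and -0.59.

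Against steady state the picture was different from that over the weeks. The average of the 8 week means in HSC could be tested, and 0 of the 10 genes were called by edgeR's quasi-likelihood test, with 1 of 10 under an unadjusted p of 0.05. That gene was the sparse Anxa11, at a difference of -2.16 log2 units (SE 1.01, adjusted p = 0.252). DESeq2 also called 0 of the 10. Anxa1 held 29.7 to 941 CPM (median 350 CPM) in 24 transplanted HSC libraries and 165 to 834 CPM (median 348 CPM) in 8 steady-state ones. Over all 14209 genes 0.0985% were called higher and 5.22% lower. In all, 755 genes were called, and 0 when the transplanted libraries were treated as 1 group, and in simulated data this average called unchanged genes lower. Of this average, only the values of the 10 genes are used here. Of the 10 genes 3 had a positive difference, and their median was -0.16 log2 units against -0.39 over all genes. Leaving out 1 library changed 1 call: without HSC 16 weeks replicate 1, Anxa5 was called lower after transplant (-0.63 log2 units, adjusted p = 0.0401 by edgeR).

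In the progenitors the differences from steady state are a description. Anxa5 in HPC-1 held 31.9 to 312 CPM (median 209 CPM) in transplanted libraries and 36.3 to 203 CPM (median 117 CPM) at steady state, a fitted difference of 0.72 log2 units (SE 0.28). Anxa4 in HPC-1 held 96.3 to 551 CPM (median 231 CPM) after transplant and 250 to 454 CPM (median 281 CPM) at steady state, a difference of -0.55 log2 units (SE 0.18). So the early weeks of Anxa4 lay below steady state and the late weeks reached its lower part. Anxa1 in HPC-1 held 216 to 882 CPM (median 550 CPM) after transplant and 344 to 601 CPM (median 517 CPM) at steady state, a difference of 0.05 log2 units (SE 0.16). Its 3-week libraries were low and 5 of its 6 late libraries exceeded the highest steady-state value. In HPC-2 the differences were -0.78 (SE 0.62) for Anxa1, 0.45 (SE 0.79) for Anxa2 and 0.07 (SE 0.60) for Anxa5 log2 units, each with an error near or above its own size. Anxa2 in HPC-2 held 11.5 to 271 CPM (median 73.1 CPM) after transplant and 0 to 141 CPM (median 46.5 CPM) at steady state. Without the sparse libraries its difference was -0.56 log2 units, with only replicates 2, 5 and 7 left at steady state. Replicates 5 and 7 had the highest steady-state levels, 129 and 141 CPM. Each of them is nearly identical to an HPC-1 library and lies nearer to HPC-1, so this value rests largely on them. Over the 10 genes 8 differences were positive in HPC-1 and 6 in HPC-2, with medians of 0.24 and 0.058 log2 units. Over all genes the medians were -0.18 in HPC-1 and 0.0018 in HPC-2. Over all genes 0.0365% of 13717 genes were called higher and 1.35% lower in HPC-1, and 0.067% of 13436 higher and 1.09% lower in HPC-2.

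The populations were compared over the mean of the 8 weeks after transplant, in a fit of 72 transplanted libraries and 15708 genes. The stated choice named the course over the weeks in progenitors and not this difference. It was read from progenitor libraries that are also in this fit, so the p-values are not shown to be independent of the choice. Lgals1 was lower in HSC than in either progenitor, Anxa1 was higher in HPC-1 than in HPC-2, and Anxa2 was lower in HSC than in HPC-1. Lgals1 held 0 to 167 CPM (median 82.6 CPM) in HSC, 147 to 631 CPM (median 264 CPM) in HPC-1 and 0 to 666 CPM (median 228 CPM) in HPC-2. The HSC and HPC-1 ranges overlapped by a few libraries, and those of HSC and HPC-2 overlapped more widely, through HPC-2 libraries of weeks 8 to 16. The difference was -2.06 log2 units (SE 0.36, adjusted p = 3.83e-05) for HSC against HPC-1 and -1.61 log2 units (SE 0.36, adjusted p = 0.00161) for HSC against HPC-2, by edgeR's quasi-likelihood test. The first was called in every alternative run, and the second was lost when replicate 2 of each group was left out (adjusted p = 0.124).

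Anxa1 held 29.7 to 941 CPM (median 350 CPM) in transplanted HSC, 216 to 882 CPM (median 550 CPM) in HPC-1 and 52.2 to 665 CPM (median 229 CPM) in HPC-2. Its difference between HPC-1 and HPC-2 was 1.26 log2 units (SE 0.26, adjusted p = 0.000491 by edgeR) and was called in every alternative run. The differences of HSC from HPC-1 (-0.565, adjusted p = 0.212) and from HPC-2 (0.70, adjusted p = 0.0782) did not pass. DESeq2 called the first (-0.68, adjusted p = 0.0277), as did edgeR with no filter on low counts (adjusted p = 0.0413), and the second passed with no filter (adjusted p = 0.0122) and without the libraries nearer to another population (adjusted p = 0.0294). Anxa2 held 0 to 157 CPM (median 43.3 CPM) in HSC, 0 to 272 CPM (median 169 CPM) in HPC-1 and 11.5 to 271 CPM (median 73.1 CPM) in HPC-2. HSC were lower than HPC-1 by an edgeR difference of -1.94 log2 units (SE 0.48, adjusted p = 0.0044), a call lost without replicate 3 of each group (adjusted p = 0.18). The differences in Anxa2 of HSC from HPC-2 (-0.94, adjusted p = 0.244) and of HPC-1 from HPC-2 (1.005, adjusted p = 0.245) did not pass, and DESeq2 called the first (-1.14, adjusted p = 0.0347).

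Anxa4 and Anxa6 were called in other pairs, less stably. Anxa4 held 83.1 to 387 CPM (median 258 CPM) in transplanted HSC, 96.3 to 551 CPM (median 231 CPM) in HPC-1 and 54.2 to 473 CPM (median 173 CPM) in HPC-2, ranges that overlap almost wholly. It was higher in HSC than in HPC-2 (0.52 log2 units, SE 0.15, adjusted p = 0.016 by edgeR) and higher in HPC-1 than in HPC-2 (0.56, SE 0.15, adjusted p = 0.00716). Leaving out any 1 replicate number ended both calls, and so did testing without a filter (adjusted p = 0.393 against HPC-2 in HSC and 0.346 in HPC-1). The first was also lost with DESeq2's size factors in edgeR (0.174), with DESeq2 (0.076), without the nearer libraries (0.0798) and without the near-identical ones (0.0677). Anxa6 held 0 to 44.0 CPM (median 2.91 CPM) in HSC, 0 to 133 CPM (median 40.4 CPM) in HPC-1 and 0 to 105 CPM (median 7.95 CPM) in HPC-2. Its differences were -2.855 log2 units for HSC against HPC-1 (SE 0.77, adjusted p = 0.0109) and 2.665 for HPC-1 against HPC-2 (SE 0.76, adjusted p = 0.0167). The first was lost without replicate 3 of each group (adjusted p = 0.0793) and without the libraries nearer to another population (0.0513). The second was lost without replicate 1 (adjusted p = 0.337), replicate 3 (0.162), the near-identical (0.0961), the sparse (0.0792) or the nearer libraries (0.0581). S100a10 passed in none of the pairs in this fit, with -0.21 log2 units for HSC against HPC-2 (adjusted p = 0.535). With DESeq2's size factors in the same edgeR fit that value was -0.38 (adjusted p = 0.0122), so its call depends on the scaling. Anxa5 also passed in none, and the sign of its small difference between HPC-1 and HPC-2 (0.11) turned with those size factors.

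In counts, HSC against HPC-1 gave 0 of 10 higher and 3 lower, where 2.78% of all genes were called higher and 5.14% lower. HSC against HPC-2 gave 1 of 10 higher and 1 lower, where 6.02% of all genes were called higher and 2.81% lower. HPC-1 against HPC-2 gave 3 of 10 higher and 0 lower, where 7.03% of all genes were called higher and 1.2% lower. The median differences of the 10 genes were -0.63 for HSC against HPC-1, -0.045 for HSC against HPC-2 and 0.505 for HPC-1 against HPC-2, in log2 units, where all genes had medians of -0.17, 0.07 and 0.175. The 11 libraries nearer to another population include all HSC libraries at 3 weeks, and without such libraries the HSC differences of Lgals1 kept their direction and their call.

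At steady state 9 of the 10 genes passed the filter on low counts, and Anxa11 did not. Lgals1 was again lowest in HSC: 31.6 to 62.5 CPM (median 47.8 CPM) in HSC, 99.0 to 333 CPM (median 191 CPM) in HPC-1 and 120 to 417 CPM (median 202 CPM) in HPC-2, with no overlap of HSC with either. By edgeR's quasi-likelihood test the difference was -2.21 log2 units (SE 0.41, adjusted p = 0.0158) for HSC against HPC-1 and -2.07 (SE 0.41, adjusted p = 0.0322) for HSC against HPC-2. The second call was lost when all genes were tested without a filter (adjusted p = 0.0731) and when 1 of 4 libraries was left out: HSC replicate 4 (0.0519) or 6 (0.0568), or HPC-2 replicate 3 (0.057) or 6 (0.0514). With the sample description numbers as a block in the edgeR fit, the first call was lost as well (adjusted p = 0.0517). The second was lost with that block (0.162) and with replicate numbers as a block (0.142). Lgals1 was the 1 member called in each of these pairs, and it was lower in both. Over 11348 genes, 0.132% were called higher and 0.441% lower in HSC than in HPC-1, and 1.08% higher and 0.256% lower in HSC than in HPC-2. Between HPC-1 and HPC-2, 0 of 9 genes were called, also 0 of 9 by unadjusted p under 0.05, where 0.00881% of all genes were called higher and 0.0176% lower. Anxa5 held 277 to 446 CPM (median 362 CPM) in HSC and 36.3 to 203 CPM (median 117 CPM) in HPC-1, also without overlap. Its difference of 1.57 log2 units did not pass (adjusted p = 0.997 by edgeR), and it was called without the sparse libraries (1.51, adjusted p = 0.0129) and without HPC-2 replicate 1 in the shared fit (1.505, adjusted p = 0.0478).

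**Figure D5:**
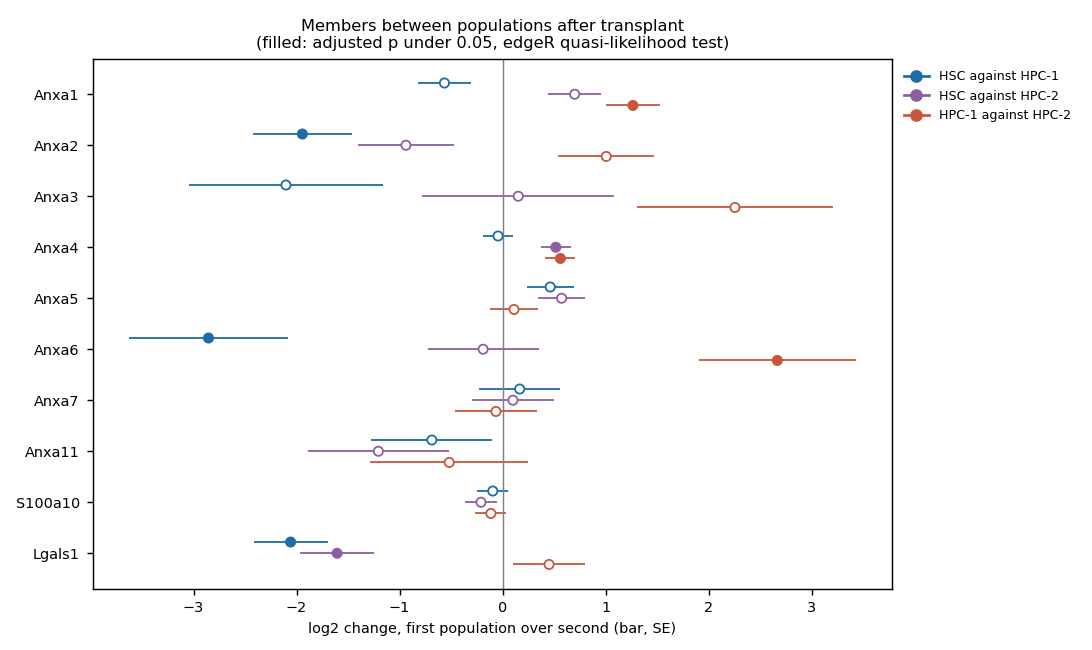
Fitted log2 differences between populations after transplant for each of the 10 genes (HSC against HPC-1, HSC against HPC-2, HPC-1 against HPC-2), with bars of 1 standard error and filled points where the adjusted p is under 0.05. Lgals1 lies at -2.06 and -1.61 in the HSC pairs and Anxa1 at 1.26 for HPC-1 against HPC-2.

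Other genes of the same machinery were read from lists chosen with earlier results in view: other annexins, S100 proteins, galectins, annexin partners and receptors, galectin-1 glycoproteins, phosphatidylserine exposure, and the cell cortex. The S100 list leaves out S100a10, whose differences in HSC after transplant were -0.096 log2 units against HPC-1 and -0.21 against HPC-2, while most of the listed members were positive. Against HPC-1 all 10 tested members of 15 were positive and 2 were called higher, and against HPC-2 9 of 10 were positive and 4 were called higher, with 0 called lower in either, where 2.78% and 6.02% of all genes were called higher. S100a8 and S100a9 of this list are also granulocyte markers. S100a6, a calcium-binding protein that can bind annexin A11, held 114 to 419 CPM (median 221 CPM) in HSC, 25.0 to 149 CPM (median 68.4 CPM) in HPC-1 and 0 to 190 CPM (median 71.0 CPM) in HPC-2. Its edgeR differences were 1.69 log2 units (adjusted p = 2.08e-05) against HPC-1 and 1.82 against HPC-2, both called. S100a1 held 132 to 1211 CPM (median 514 CPM) in HSC, 63.9 to 379 CPM (median 185 CPM) in HPC-1 and 75.1 to 591 CPM (median 276.5 CPM) in HPC-2, with differences of 1.48 and 0.93. S100a11, the partner of annexin A1, and S100a4 were called higher against HPC-2 only, at 0.72 and 3.39 log2 units, and S100a4 reached no more than 51.5 CPM in any HSC library. Both were also called higher in HPC-1 than in HPC-2, at 0.51 and 1.95 log2 units.

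The other lists held calls in both directions, of which only some are named. After transplant, 2.78% of all genes were called higher and 5.14% lower for HSC against HPC-1. The shares were 6.02% higher and 2.81% lower for HSC against HPC-2, and 7.03% higher and 1.2% lower for HPC-1 against HPC-2. Of 7 tested galectins, Lgals9 (galectin-9) was called lower in HSC than in HPC-2 (-0.59 log2 units), at 97.8 to 2032 CPM (median 1188 CPM) in HSC and 860 to 3038 CPM (median 1728 CPM) in HPC-2. Lgals7 was called higher in HSC than in HPC-1 with at most 14.4 CPM in any HSC library. Of the galectin-1 glycoproteins, Ptprc (CD45) was called higher in HPC-1 than in HPC-2 (1.07 log2 units), at 70.1 to 241 CPM and 0 to 384 CPM, and so were Lamp2 and the sparse Thy1. Of 11 tested annexin partners and receptors, Ahnak, a scaffold of the annexin A2 complex, was called lower in HSC than in HPC-1 and higher in HPC-1 than in HPC-2, yet its median was 1.05 CPM in HPC-1 and 0 in the other 2. Of 10 tested phosphatidylserine genes, 2 were called higher and 1 lower in HSC than in HPC-1. In HPC-1 against HPC-2, 1 was called higher and 2 lower. The flippase Atp8a1 was called higher in HSC than in HPC-1 (0.98) and lower in HPC-1 than in HPC-2 (-1.22), and the scramblase Plscr1 was called lower in HPC-1 than in HPC-2 (-1.02). The flippase Atp8b4 separated HPC-1, with counts in 24 of 24 libraries (median 43.4 CPM), from HSC and HPC-2, where 8 and 7 libraries had counts. Of 12 cortex genes, 1 was called higher and 3 lower in HSC than in HPC-1. Against HPC-2, 0 were called higher and 2 lower in HSC. Among them, Vim (vimentin) was called lower in HSC than in HPC-1 (-1.23) and Flna (filamin A) lower in HSC than in either progenitor (-1.10 and -1.57). The lists had 0 calls with weeks in HSC, HPC-1 or HPC-2 and 0 in the HSC and HPC-1 averages against steady state. In the HPC-2 average, Fpr2 (the annexin A1 receptor) and Atp8b4 were called lower, with counts in 4 and 7 of 24 transplanted libraries and in 2 of 7 steady-state libraries each. Both genes had a median of 0 CPM in both states. In simulated HSC data this kind of average called unchanged genes lower, and the HPC-2 average was not simulated. Nothing is read from these calls. At steady state the calls were Kdr and Xkr8, higher in HSC than in HPC-2, with counts in 5 of 8 HSC libraries and 1 of 7 HPC-2 libraries each. Of the 4 other annexins (Anxa8, Anxa9, Anxa10, Anxa13), 1 passed the filter and 0 were called.

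Likeness of pattern was measured as Spearman's rho between group means over the 27 groups of population and week or state, over the same 8355 genes averaging 10 CPM or more. The groups share libraries of unequal depth and near-identical pairs, so the values describe these samples. The closest genes to Anxa1 were Arhgap15 (0.80), Fbp1 (0.791), Tnfaip8 (0.772), Spint2 (0.764) and Fth1 (0.754). The closest to Anxa2 were Bid (0.93), Pgam1 (0.888), Pitpna (0.883), Nrros (0.879) and Idh2 (0.879), and those to Anxa5 were Ccdc115 (0.731), Hadh (0.73), Prdx5 (0.719), Gyg (0.705) and Cmas (0.698). Within the set, rho was 0.579 between Anxa2 and Anxa3, 0.559 between Anxa1 and Anxa4 and 0.407 between Anxa2 and Anxa7. It was 0.305 between Anxa1 and Anxa2, 0.201 between Anxa2 and Anxa5 and 0.0708 between Anxa1 and Anxa5. The closest genes are the highest of 8355 and the pairs of the set were fixed beforehand, so their values are not set against each other. For the partners, rho with S100a10 was -0.0177 for Anxa1, -0.429 for Anxa2 and -0.648 for Anxa5. With Lgals1 it was -0.0989 for Anxa1, 0.279 for Anxa2 and -0.568 for Anxa5.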

How the data were processed

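RNA was measured in 95 libraries of sorted HSC, HPC-1 and HPC-2. Per the labels' protocols, cDNA was made with SMART-Seq v4 and libraries with Nextera XT. The authors deposited counts of reads per gene, not normalized. The submitters' processing notes name Trimmomatic 0.36, HISAT2 2.0.5, Picard, featureCounts and GRCm38 (mm10). The strand setting and annotation release are not given in the sources used here, so reads of a gene and an antisense partner cannot be told apart. Of the 53465 entries, 3433 have no symbol and 99.6% matched GENCODE M21, which gave exon lengths.

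The members and gene lists were chosen with earlier results of these data known. Named genes are the 10 members, up to 4 called genes per list by smallest p, and the 5 genes most like Anxa1, Anxa2 and Anxa5. Counts were tested with edgeR 4.0.16 in R 4.3.3 (TMM scaling, edgeR's low-count filter, quasi-likelihood F test, Benjamini-Hochberg adjustment over all fitted genes, called under 0.05). Separate fits covered the weeks in each population (slope on log2 weeks), the average of 8 week means against steady state, the 72 transplanted libraries and the 23 steady-state libraries. In tests on simulated data the average against steady state in HSC called unchanged genes lower. The simulated spread was estimated without regard to week or state, so it can exceed the spread in the reported fit. DESeq2 1.42.0, its size factors, no filter, left-out libraries and a replicate block were alternatives. The labels do not say that replicates came from separate animals, so p-values measure the spread between these libraries, which may be technical. Totals of 3551908 to 8492759 counts set the precision. CPM are counts-per-million of a library's total. Near-identical pairs were those with a chi-square per degree of freedom under 10.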

Additional observations from a re-analysis of the deposited data

Results flagged for a closer look

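Within groups of 4 to 10 libraries, 6 of 30 tested combinations of gene and steady-state population held 1 library far from the rest. The cut-offs mark about 1 in 20 groups of normally distributed values. These CPM are skewed and some groups hold zeros, so the share that chance would mark here is not known. Of the 6, 4 lay in HSC. Anxa2 in HSC was 270 CPM in steady state replicate 1, and 0 to 48.5 CPM in the other 7 libraries. That library is sparse, nearly identical to HPC-2 13 weeks replicate 1, and nearer to HPC-2 than to HSC. Anxa3 in HSC was 118 CPM in replicate 5 and 0 to 18.3 CPM in the others. Anxa7 and S100a10 in HSC both stood out in replicate 3, a sparse library, at 363 CPM against 0 to 155 CPM and at 810 CPM against 305 to 527 CPM. Anxa11 in HPC-1 was 2.12 CPM in replicate 4, a few counts, and at most 0.422 CPM in the others. Lgals1 in HPC-2 was 417 CPM in replicate 6, a sparse library, and 120 to 228 CPM in the others. What set these libraries apart was not tested.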

How the results depend on the processing

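Under other settings 922 recomputed values kept their side of the threshold or their size within the spread, 16 lost a call, 11 gained one and 13 moved, and 0 members called in the reported fits changed sign. Members that were not called changed sign in 56 of 533 such values. The count of members called for HSC against HPC-1 at steady state was 1 as reported and 2 without sparse libraries, and for HSC against HPC-2 it was 1 as reported and 0 without a filter. After transplant it was 3 as reported and 5 without a filter for HSC against HPC-1, and 2 as reported and 1 without near-identical libraries for HSC against HPC-2. Positive members in the average against steady state were 8 as reported and 5 without near-identical libraries in HPC-1, and 6 as reported and 3 with DESeq2 or its size factors in HPC-2. The cause was not tested.

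Leaving out 1 library (or 1 replicate number of every week after transplant) gave 0 to 1 members called in the HSC average, 1 to 2 in HSC against HPC-1 and 0 to 1 in HSC against HPC-2 at steady state. After transplant it gave 1 to 3 for HSC against HPC-1, 0 to 1 for HSC against HPC-2 and 1 to 2 for HPC-1 against HPC-2, and it gave 3 to 8 positive members in the HPC-1 average. Anxa3 was called higher in HPC-1 than in HPC-2 without replicate 3 (3.82 log2 units, adjusted p = 0.0474 by edgeR).

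The labels do not say whether same-numbered libraries share animals, and those of 1 week carry consecutive numbers in the sample descriptions. The correlation of deviations between same-numbered libraries of the same week had a median of 0.034 (-0.25 to 0.601). It exceeded 0.1 in 16 of 72 pairs. Differently numbered libraries were not compared, so pairing is not settled, and the reported fits hold no block. With the replicate block 0 members were called for HSC against HPC-2 at steady state (Lgals1 -2.05, adjusted p = 0.142 by edgeR). With a block by the numbers in the sample descriptions 0 were called there (Lgals1 adjusted p = 0.162) and 0 for HSC against HPC-1 (Lgals1 -2.15, adjusted p = 0.0517). After transplant the block ended both Anxa6 calls (adjusted p = 0.0668 for HSC against HPC-1 and 0.0721 for HPC-1 against HPC-2).

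Counts over all genes varied more. The HSC average gave 755 as reported, 2733 without a filter, 340 without 3-week libraries, 232 without nearer libraries, and 0 with the block or with transplanted libraries as 1 group. The HSC slope gave 31 as reported, 1243 without a filter, 235 with DESeq2, 101 without sparse and 52 without nearer libraries, 12 on linear weeks, and 4 with the block or without 3-week libraries. At steady state HSC against HPC-1 gave 65 as reported, 32 without a filter, 146 with DESeq2, 353 without sparse, 119 without near-identical and 157 without nearer libraries, and 102 with the block. HSC against HPC-2 gave 151 as reported, 10 without a filter, 344 with DESeq2, 69 without sparse, 1574 without near-identical and 1645 without nearer libraries, 1 with the block and 2 by description number. HPC-1 against HPC-2 gave 3 as reported, 1 without a filter, 5 with DESeq2's size factors, 259 with DESeq2, 1544 without near-identical and 1705 without nearer libraries, and 0 without sparse libraries or with either block. After transplant DESeq2 gave 3094, 3921 and 2901 for HSC against HPC-1, HSC against HPC-2 and HPC-1 against HPC-2, where edgeR gave 1243, 1388 and 1293, and the block gave 830 for the last pair. The setting without nearer libraries was chosen after seeing the data.

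Depth limits the sparse members most. Anxa11 rested on 658 counts, and a level of 0 in a sparse library says that the gene was not detected at that depth. The 3 libraries for each week, the near-identical pairs across groups and the marker shifts over the weeks limit every value over time, and the sort gate is given alike for the 3 populations.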
